A study of Mus musculus with 16 samples.

Results

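The data described here follow epididymal white adipose tissue (eWAT), the visceral fat pad of male mice, between week 7 and week 10 of age in obese diabetic control animals. The comparison takes 8 of the 16 RNA-seq libraries of the series, 4 from eGFP mice at week 7 and 4 from eGFP mice at week 10. All mice were males of genotype C57BLKS/J-db/db, which lack working leptin receptor signalling, overeat and become hyperglycaemic, and were kept on standard chow. The 8 control mice had received AAV8-eGFP, an adeno-associated virus carrying enhanced green fluorescent protein, by retro-orbital injection at 4 weeks of age, and the other 8 libraries came from mice given AAV8-LRG1 and collected at the same ages. The vector used the broadly active CB7 promoter, and each cage of mice was given a single virus. Different mice were collected at each age, so week is a comparison between animals and includes any difference in cage, cohort or day of collection, which cannot be told apart from age. No library of lean or uninjected mice enters here, so the course is that of db/db mice carrying this virus. The question was how the eWAT transcriptome of diabetic control mice changed over these weeks, the background against which LRG1 was studied.

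In obesity the visceral fat pad gathers macrophages and T cells around stressed adipocytes. Activated T cells and natural killer cells release interferon-gamma, which acts through the kinases JAK1 and JAK2 to induce immunity-related GTPases, guanylate-binding proteins, the chemokines CXCL9 and CXCL10, and the machinery that displays peptides to T cells. Its induction of the co-activator CIITA switches on the major histocompatibility complex (MHC) class II genes, through which macrophages, dendritic cells and B cells present antigen to CD4+ T cells.

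The 8 control libraries held between 45376227 and 64521251 assigned read counts each, and values are given as CPM (assigned counts scaled to a common library size) after trimmed-mean (TMM) scaling. The tissue label held in all of them: the 10 eWAT identity genes examined were all expressed and none passed the test between weeks, and none of 17 epididymis and testis genes passed the expression filter. The 4 week 10 libraries were not alike. Libraries 1 and 3 stood apart from libraries 2 and 4, and the first principal component of the 8 libraries, with 42.3% of the variance among the 2000 most variable genes, placed week 10 libraries 1 to 4 at 41.2, 0.461, 54.9 and 18.7 and the week 7 libraries between -35.5 and -18.2. The mean log2 CPM of 20 lipid-associated macrophage genes was 9.17, 9.46, 9.14 and 8.93 in week 7 libraries 1 to 4 and 10.04, 8.53, 10.2 and 8.9 in week 10 libraries 1 to 4. The same mean over 26 mature adipocyte genes was 8.29, 8.2, 8.28 and 8.37 at week 7 and 7.63, 8.86, 7.97 and 8.72 at week 10. Week 10 libraries 1 and 3 were thus above all week 7 libraries for the macrophage genes and below them for the adipocyte genes, while libraries 2 and 4 were above them for the adipocyte genes. Week 10 library 3 also had the lowest depth and took 44.7% of its counts from its 20 most counted genes, against 33.6% to 37.3% in the other 7. The share of counts on mitochondrial ribosomal RNA was 25.0% ± 0.864 at week 7 and 26.2% ± 1.39 at week 10 (SD, n = 4).

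**Figure D1:**
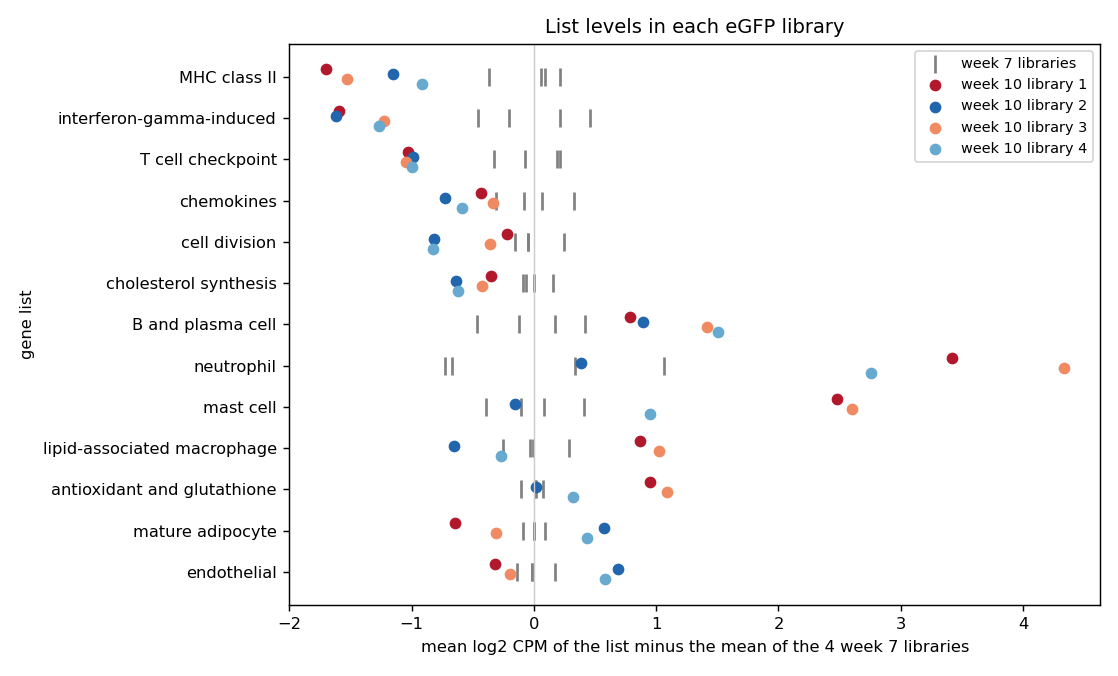
Mean log2 CPM of 13 gene lists in each eGFP library, drawn as the difference from the mean of the 4 week 7 libraries (grey ticks), with week 10 libraries 1 to 4 as coloured points. All 4 week 10 libraries lie left of the week 7 libraries for MHC class II, interferon-gamma-induced and T cell checkpoint genes, whereas libraries 1 and 3 part from 2 and 4 for the macrophage, mast cell, antioxidant, adipocyte and endothelial genes.

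Of 20822 genes tested with edgeR's quasi-likelihood F test across all 16 libraries, 446 were called, which is 2.14% of the genes tested. A call needed an adjusted p (Benjamini-Hochberg) under 0.01. There were 131 genes higher at week 10 (0.629%) and 315 lower (1.51%). These shares are the background of the list counts below. Scaled by library size alone the split was 91 higher and 476 lower, and with DESeq2 450 higher and 604 lower. The change was 2-fold or more in 80 of the higher and 173 of the lower genes. The median log2 fold change over all genes tested was -0.0093. Genes named for a large change, on the log2 or the CPM scale, or for a small p had to have weeks that did not overlap. For those genes non-overlap is no support. Because whole tissue was sequenced, fewer cells of a type and less RNA per cell cannot be told apart.

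**Figure D2:**
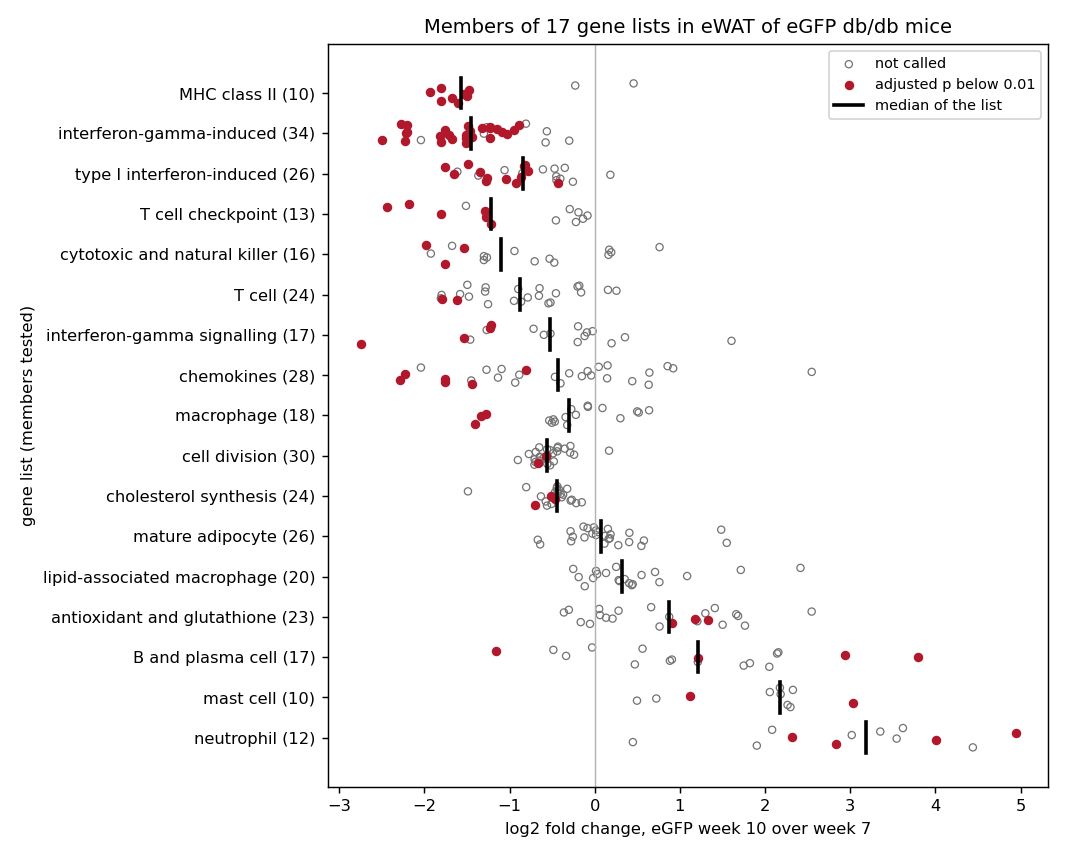
The log2 fold change from week 7 to week 10 in eGFP mice of each tested member of 17 gene lists, with called genes filled, other genes open and the list median as a black bar. Called members lie left of 0 in the interferon, MHC class II, T cell, chemokine, macrophage, cell division and cholesterol lists and right of 0 in the antioxidant, mast cell and neutrophil lists, while the B and plasma cell list holds both.

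Interferon-gamma responses were lower at week 10, in the cytokine itself and in its targets. Of 34 interferon-gamma-induced genes, all tested, 26 fell, none rose and 8 were not called, with a median log2 fold change of -1.46 beside the -0.0093 of all genes and beside the 1.51% of all genes called lower. All 34 had a log2 fold change below 0, and 31 had week 10 libraries all below the week 7 libraries, as had 6.89% of all genes. The count of lower members was 19 to 28 with 1 of the 8 control libraries left out and 14 when only those 8 libraries were fitted. *Ifng*, the cytokine itself, was scarce, at 1.36, 1.24, 0.692 and 1.88 CPM at week 7 and 0.123, 0.168, 0.208 and 0.27 CPM at week 10 in libraries 1 to 4. No week 10 library reached the lowest week 7 library (log2 fold change -2.75, SE 0.54, adjusted p = 0.0069). *Tbx21*, the transcription factor T-bet that drives *Ifng* in T helper and natural killer cells, moved the same way, from 1.84 ± 0.552 to 0.786 ± 0.13 CPM (log2 fold change -1.22, SE 0.24, adjusted p = 0.00645). *Il12rb1*, a chain of the interleukin-12 receptor that induces interferon-gamma, fell by 1.53 on the log2 scale (SE 0.31, adjusted p = 0.00858). The calls of these 3 genes were lost in 7, 5 and 6 of the 8 fits with a control library left out, with adjusted p up to 0.0286, 0.0285 and 0.0341 for *Ifng*, *Tbx21* and *Il12rb1*.

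The responding genes were more abundant. *Irf1*, a transcription factor induced by interferon and chosen here after its values were seen, was at 80, 54.1, 48.6 and 65.9 CPM at week 7 and 28.9, 27.5, 29.8 and 30.8 CPM at week 10. *Irf1* had a log2 fold change of -1.09 (SE 0.17, adjusted p = 0.00156). *Iigp1*, an immunity-related GTPase that attacks the vacuoles of intracellular parasites, was at 1482, 913, 726 and 1251 CPM at week 7 and 238, 185, 285 and 243 CPM at week 10. The weeks did not overlap, which was a condition for naming *Iigp1* (log2 fold change -2.2, SE 0.34, adjusted p = 0.00141). *Igtp*, a regulatory GTPase of the same family, was at 302, 173, 132 and 245 CPM at week 7 and 41.1, 35.6, 54.8 and 52 CPM at week 10. *Igtp* showed a log2 fold change of -2.22 (SE 0.31, adjusted p = 0.000682). Of the 11 guanylate-binding protein genes tested, a family counted after values were seen, 10 fell. *Gbp2* was at 741, 468, 394 and 658 CPM at week 7 and 151, 196, 179.5 and 265 CPM at week 10. *Gbp2* gave a log2 fold change of -1.51 (SE 0.20, adjusted p = 0.000393). *Gbp10* went from 94 ± 39 to 16.6 ± 3.69 CPM (SD, n = 4; log2 fold change -2.5, SE 0.46, adjusted p = 0.00433). The call of *Gbp10* was lost in 4 of the 8 fits with a control library left out (adjusted p up to 0.0189). Members of these GTPase families share much sequence, so reads may be split between copies. *Cxcl10*, which draws T cells bearing the receptor CXCR3, was at 20.2, 13.3, 10.6 and 14.5 CPM at week 7 and 3.05, 3.12, 3.46 and 2.85 CPM at week 10, with a narrow range at week 10. *Cxcl10* gave a log2 fold change of -2.23 (SE 0.29, adjusted p = 0.000432). *Cxcl9*, a ligand of the same receptor, was at 658, 442, 298 and 529 CPM at week 7 and 97.9, 115, 119 and 136 CPM at week 10, lower in every week 10 library, yet was not called. *Cxcl9* gave a log2 fold change of -2.04 (SE 0.50, adjusted p = 0.0247). Among the 17 genes of the interferon-gamma signalling list 4 fell and none rose, with a median of -0.52.

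**Figure D3:**
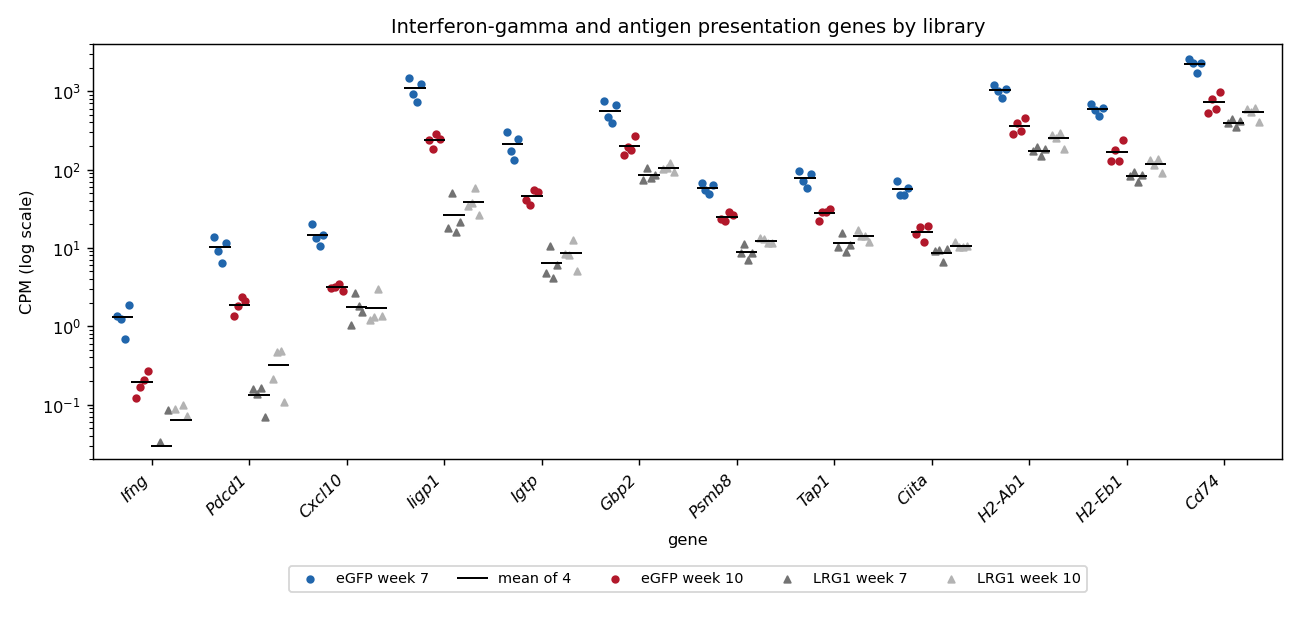
CPM on a log axis of 12 interferon-gamma and antigen presentation genes in each library, with circles for eGFP mice (blue week 7, red week 10), triangles for LRG1 mice and bars for the mean of 4. In each gene the 4 red points lie below the 4 blue points, which was a condition for naming *Iigp1*, *Igtp* and *Gbp2*. For *Ifng*, 3 of the 8 LRG1 libraries had no count and are not drawn.

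The promoters of these genes are shown because the group is known for a shared interferon response element. RefSeq promoter windows (build GRCm38.p6) reach from 250 bases before to 50 after the transcription start and were found for 20 of the 34 interferon-gamma-induced genes, with 23 windows. The letters GAAANNGAA, the core of the interferon-stimulated response element, were present on either strand in 13 of the 23 windows (56.5%), against 8.56% of all 32851 windows. The letters TTCNNNGAA of the gamma-activated site (GAS) were in 9 of the 23 windows (39.1%), against 8.30% of all. Stretches of 60 bases follow for the 6 called members with the smallest p whose window holds the first motif, read 5′ to 3′ along the gene, with the match in capitals (on the opposite strand in *Gbp2* and *Gbp5*) and no overlap with the second motif.
Irgm2 (chr11:58214887-58214946, plus strand): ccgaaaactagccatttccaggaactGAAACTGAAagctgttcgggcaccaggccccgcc
Gbp2 (chr3:142620579-142620638, plus strand): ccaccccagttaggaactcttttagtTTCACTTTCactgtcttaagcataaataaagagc
Cxcl10 (chr5:92349069-92349128, minus strand): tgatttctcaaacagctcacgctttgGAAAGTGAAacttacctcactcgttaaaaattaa
Irgm1 (chr11:48871411-48871470, minus strand): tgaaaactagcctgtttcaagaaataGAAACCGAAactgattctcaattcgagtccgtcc
Igtp (chr11:58199496-58199555, plus strand): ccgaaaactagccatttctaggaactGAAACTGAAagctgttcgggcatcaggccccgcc
Gbp5 (chr3:142496744-142496803, plus strand): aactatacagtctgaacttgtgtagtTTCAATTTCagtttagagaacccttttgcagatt
The capitals start 64, 58, 213, 24, 34 and 164 bases before the start site in this order. The window of *Irgm1* holds 2 matches of the first motif. The unmarked match begins in the lower-case letters just before the capitals and overlaps them. Among the type I interferon-induced genes, described below, GAAANNGAA was in 12 of 23 windows (52.2%) and TTCNNNGAA in 4 (17.4%). The first motif is thus not particular to the interferon-gamma-induced genes. A match describes the letters only.

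Most MHC class II genes fell at week 10. Of the 10 MHC class II genes tested, 8 fell and none rose, with a median log2 fold change of -1.57, and this count was 8 with any of the 8 control libraries left out and 7 in the fit of those 8 libraries alone. *Ciita*, the co-activator that switches on the class II genes, was at 71.7, 47.9, 47.6 and 57.5 CPM at week 7 and 15.1, 18.4, 12 and 18.8 CPM at week 10. The highest week 10 value was far below the lowest week 7 value (log2 fold change -1.8, SE 0.16, adjusted p = 3.00e-05). *Cd74*, the invariant chain that guards the peptide groove, was at 2583, 2263, 1681 and 2263 CPM at week 7 and 528, 793, 591 and 978 CPM at week 10. *Cd74* had a log2 fold change of -1.6 (SE 0.19, adjusted p = 0.000166). The chains of the class II molecules moved with it. *H2-Ab1* was at 1204, 991, 822 and 1079 CPM at week 7 and 287, 388, 309.9 and 459 CPM at week 10. *H2-Ab1* showed a log2 fold change of -1.5 (SE 0.17, adjusted p = 0.000133). *H2-Aa* went from 1170 ± 197 to 367 ± 112 CPM (SD, n = 4; log2 fold change -1.67, SE 0.20, adjusted p = 0.000187), and *H2-Eb1* from 585 ± 88.5 to 167 ± 51.8 CPM (SD, n = 4; log2 fold change -1.81, SE 0.19, adjusted p = 9.18e-05). The peptide-loading chains *H2-DMa* and *H2-DMb1* fell by 1.54 and 1.93 on the log2 scale, with SE 0.14 and 0.17 and adjusted p = 3.00e-05 and 3.00e-05, among the smallest of all genes tested. No week 10 library reached a week 7 library in any of these genes, which was a condition for naming *H2-Aa*. Libraries 1 and 3 were the lowest of the week 10 group in each of these genes except *H2-DMa*. The summed level of the 18 macrophage genes listed ranged from 4832 to 6181 CPM at week 7 and from 3066 to 7708 CPM at week 10, and that of 20 pan-leukocyte genes from 2209 to 2711 CPM and from 1225 to 3135 CPM. Their part in the fall of the class II genes was not tested.

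Class II promoters are known for a conserved X and Y box, the Y box being a reversed CCAAT sequence, so the CCAAT stretches of the class II genes are shown. Windows were found for 7 of the 10 genes, and CCAAT was present on either strand in 7 of the 8 windows (87.5%), against 37.4% of all windows. The interferon response letters above were in none of the 8. Capitals mark the CCAAT match nearest the start site, on the opposite strand except in *H2-Eb1*. The window of *H2-Eb1* holds 2 matches, and the other, a reversed CCAAT near the left end of the stretch, is in lower case. The capitals start 61, 198, 35, 48 and 90 bases before the start site in the order shown. Which match is a Y box was not tested.
H2-DMb1 (chr17:34153104-34153163, plus strand): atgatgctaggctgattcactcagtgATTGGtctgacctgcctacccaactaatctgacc
H2-DMa (chr17:34125294-34125353, plus strand): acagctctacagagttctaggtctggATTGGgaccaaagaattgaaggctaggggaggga
H2-Eb1 (chr17:34305806-34305865, plus strand): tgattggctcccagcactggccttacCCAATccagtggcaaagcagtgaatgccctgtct
H2-Aa (chr17:34287838-34287897, minus strand): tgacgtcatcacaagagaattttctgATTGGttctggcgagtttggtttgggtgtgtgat
H2-DMb2 (chr17:34145133-34145192, plus strand): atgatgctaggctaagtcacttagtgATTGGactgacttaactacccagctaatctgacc
All 5 stretches shown lie on chromosome 17, in the MHC region. Genes of another chromosome were left out before the stretches were chosen. The shared place is thus partly set by that choice and is no result. Over the whole of chromosome 17, 33 of 1006 tested genes were lower at week 10 (3.28%), beside 1.51% of all genes and 26 of 858 genes of chromosome 13 (3.03%).

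Genes that serve MHC class I were also lower at week 10. *Nlrc5*, the class I counterpart of *Ciita*, was at 87.6, 61.1, 66.2 and 79.1 CPM at week 7 and 35.9, 36.7, 39.9 and 39.5 CPM at week 10. *Nlrc5* gave a log2 fold change of -0.95 (SE 0.098, adjusted p = 8.86e-05). *Psmb8*, a subunit that turns the proteasome into the immunoproteasome, went from 58.4 ± 7.98 to 24.9 ± 2.88 CPM (log2 fold change -1.23, SE 0.13, adjusted p = 9.18e-05). *Psmb10*, another such subunit, went from 49 ± 6.24 to 22.2 ± 1.48 CPM (log2 fold change -1.14, SE 0.10, adjusted p = 3.00e-05). *Tap1*, which pumps peptides into the endoplasmic reticulum, was at 95.1, 70.7, 57.9 and 86.6 CPM at week 7 and 22.3, 28.4, 28.8 and 31.1 CPM at week 10. *Tap1* had a log2 fold change of -1.49 (SE 0.18, adjusted p = 0.000205). Of 17 class I genes tested, a family counted after values were seen, 8 fell and 1 rose, beside 1.51% and 0.629% of all genes. *H2-Q6* was at 140.1, 110.0, 98.7 and 115 CPM at week 7 and 48.3, 52.5, 51.8 and 61.7 CPM at week 10 (log2 fold change -1.11, SE 0.12, adjusted p = 0.000102), and *H2-Q2* fell as well (log2 fold change -0.83, SE 0.092, adjusted p = 0.000123). The H2-Q genes are near-identical copies and the MHC alleles of this strain need not be those of the reference genome, so levels of single copies are uncertain.

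Genes listed as type I interferon targets were lower as well, and the part of interferon-gamma in this fall was not tested. Of 26 such genes 13 fell and none rose, with a median of -0.84, beside 1.51% of all genes called lower. The count was 6 to 12 with a control library left out and 4 with the 8 control libraries alone. *Rtp4*, a receptor transporter induced by interferon, was at 42.9, 32.5, 27.7 and 39.9 CPM at week 7 and 10.7, 9.7, 11.2 and 10.6 CPM at week 10. *Rtp4* showed a log2 fold change of -1.76 (SE 0.17, adjusted p = 5.48e-05). *Stat2*, a signalling factor of the type I route, fell by 0.83 on the log2 scale (SE 0.10, adjusted p = 0.000278), *Irf7*, which amplifies type I interferon, by 0.86 (SE 0.13, adjusted p = 0.000992), and *Zbp1*, a sensor of Z-form nucleic acid, by 1.49 (SE 0.22, adjusted p = 0.000809). *Mx1*, an antiviral GTPase, was at 6.12, 4.21, 5.01 and 6.15 CPM at week 7 and 1.5, 1.9, 1.46 and 1.97 CPM at week 10. *Mx1* gave a log2 fold change of -1.65 (SE 0.21, adjusted p = 0.000289). No week 10 library overlapped a week 7 library in these 5 genes.

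Part of the T cell and natural killer cell genes fell at week 10. Of 13 T cell checkpoint genes 6 fell and none rose (median -1.22), beside 1.51% of all genes called lower. Of 16 cytotoxic and natural killer genes 3 fell and none rose (median -1.1), and of 24 general T cell genes 2 fell and none rose (median -0.88). Log2 fold changes were below 0 in all 13 checkpoint genes, in 12 of the 16 cytotoxic and natural killer genes and in 22 of the 24 general T cell genes, beside 51.4% of all genes. The other 4 cytotoxic and natural killer genes were above 0 and not called, among them *Ncr1*, the natural killer receptor NKp46 and chosen after its values were seen, at 0.76 (adjusted p = 0.0545). With a control library left out the lower counts were 3 to 6, 1 to 5 and 0 to 2, and in the fit of the 8 control libraries 2, 0 and 3, in the same order of lists. Each count was lowest without week 7 library 1, jointly with other libraries for the checkpoint and general lists. The difference between these lists was not tested. *Pdcd1*, encoding the checkpoint receptor PD-1, was at 13.8, 9.05, 6.4 and 11.6 CPM at week 7 and 1.33, 1.81, 2.34 and 2.07 CPM at week 10. *Pdcd1* had a log2 fold change of -2.44 (SE 0.31, adjusted p = 0.000352). *Tox*, a nuclear factor of chronically stimulated T cells, was at 17.3, 10.5, 7.6 and 15.4 CPM at week 7 and 2.24, 2.74, 2.47 and 3.69 CPM at week 10. *Tox* showed a log2 fold change of -2.19 (SE 0.27, adjusted p = 0.000237). *Tnfrsf9*, the co-stimulatory receptor 4-1BB, went from 5.51 ± 1.69 to 1.09 ± 0.276 CPM (log2 fold change -2.34, SE 0.30, adjusted p = 0.000289). *Lag3*, an inhibitory receptor that binds MHC class II, went from 3.44 ± 0.917 to 0.97 ± 0.31 CPM (log2 fold change -1.81, SE 0.27, adjusted p = 0.000987). For each of these 4 genes the groups did not overlap, which was a condition for naming *Tnfrsf9*. *Prf1*, the pore protein perforin, went from 9.68 ± 3.62 to 2.47 ± 0.623 CPM (log2 fold change -1.98, SE 0.34, adjusted p = 0.00296). *Klrk1*, the activating receptor NKG2D, went from 13.7 ± 5.22 to 4.72 ± 0.281 CPM (log2 fold change -1.54, SE 0.23, adjusted p = 0.000865). *Eomes*, a T-box factor of cytotoxic cells, went from 4.65 ± 1.17 to 1.91 ± 0.54 CPM (log2 fold change -1.28, SE 0.26, adjusted p = 0.00756). The 2 general T cell genes called were *Cd3e* and *Cd3d*, chains of the T cell receptor complex. *Cd3e* was at 7.57, 5.65, 4.96 and 8.86 CPM at week 7 and 1.95, 1.56, 1.93 and 2.33 CPM at week 10. *Cd3e* gave a log2 fold change of -1.8 (SE 0.35, adjusted p = 0.00629). *Cd3d* fell by 1.61 on the log2 scale (SE 0.29, adjusted p = 0.00404). The calls of *Cd3e*, *Cd3d* and *Eomes* were lost in 7, 5 and 6 of the 8 fits with a control library left out, with adjusted p up to 0.0255, 0.0169 and 0.0328. The summed level of the 24 general T cell genes ranged from 123 to 174 CPM at week 7 and from 91.6 to 126 CPM at week 10. Their mean log2 CPM ranged from 1.6 to 2.18 at week 7 and from 0.752 to 1.32 at week 10, without overlap. The part of this general T cell level in the falls of these lists was not tested.

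Of 28 chemokine genes tested 6 fell and none rose, with a median of -0.43, beside 1.51% of all genes called lower. With a control library left out 2 to 6 were lower, the fewest without week 7 library 1 or 4. Besides *Cxcl10* these were *Ccl4*, *Ccl5*, *Ccl12*, *Ccl22* and *Cxcl16*. *Ccl4*, a chemokine made by activated T cells and macrophages, was at 9.05, 6.15, 4.11 and 6.69 CPM at week 7 and 1.9, 0.957, 1.46 and 0.995 CPM at week 10. *Ccl4* had a log2 fold change of -2.29 (SE 0.46, adjusted p = 0.00725). *Ccl5*, a chemokine of T cells, went from 18.4 ± 5.37 to 5.42 ± 1.69 CPM (log2 fold change -1.76, SE 0.30, adjusted p = 0.00251). *Ccl22*, a CCR4 ligand of dendritic cells, went from 4.33 ± 0.752 to 1.27 ± 0.333 CPM (log2 fold change -1.76, SE 0.28, adjusted p = 0.00178). The monocyte attractant *Ccl2* was at 36.9, 60.8, 32.6 and 29.6 CPM at week 7 and 32.8, 13, 28 and 9.93 CPM at week 10 and was not called (log2 fold change -0.93, SE 0.36, adjusted p = 0.151); week 10 library 1 was within the week 7 range and the other 3 below it. *Ccl3* had a log2 fold change of -1.45 (adjusted p = 0.0656). With a control library left out, the calls of *Ccl4*, *Ccl12* and *Cxcl16* were lost in 6, 7 and 5 of 8 fits, with adjusted p up to 0.0307, 0.0286 and 0.0225, and that of *Ccl5* in 2 fits.

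Among 18 macrophage genes 3 fell and none rose, with a median of -0.30, beside 1.51% of all genes called lower. They were *Aif1*, a cytoskeletal protein of activated macrophages (log2 fold change -1.41, SE 0.16, adjusted p = 0.00013), the fractalkine receptor *Cx3cr1* (log2 fold change -1.34, SE 0.22, adjusted p = 0.00197) and the high-affinity IgG receptor *Fcgr1* (log2 fold change -1.28, SE 0.22, adjusted p = 0.00284). *Aif1* was at 18.4, 16.6, 14.8 and 18.9 CPM at week 7 and 6.85, 4.95, 7.08 and 6.98 CPM at week 10. *Adgre1*, encoding the macrophage surface protein F4/80, was not called and was at 343, 352, 301 and 300.3 CPM at week 7 and 343, 152, 344 and 197 CPM at week 10, with week 10 libraries 1 and 3 inside the week 7 range and 2 and 4 below it. *Adgre1* gave a log2 fold change of -0.32 (SE 0.20, adjusted p = 0.423). Without week 10 libraries 1 and 3, a fit added after seeing the data, 11 of the 18 were lower. Among the genes with the smallest p, *Slamf9*, a receptor of myeloid cells, was at 26.4, 27.5, 24.4 and 25.8 CPM at week 7 and 7.63, 7.71, 4.89 and 9.12 CPM at week 10. *Slamf9* showed a log2 fold change of -1.82 (SE 0.17, adjusted p = 3.00e-05). *Pld4*, an endolysosomal nuclease, was at 118, 110.4, 88.8 and 109 CPM at week 7 and 50.6, 42.5, 44.4 and 50.6 CPM at week 10. *Pld4* gave a log2 fold change of -1.18 (SE 0.11, adjusted p = 3.00e-05). *Naaa*, a lysosomal lipid amidase, was at 97.7, 95.7, 85.7 and 103 CPM at week 7 and 54.5, 61.9, 55.9 and 55.6 CPM at week 10. *Naaa* had a log2 fold change of -0.75 (SE 0.070, adjusted p = 3.00e-05). In all 3 the weeks did not overlap, which was a condition for naming them and is no support for the fall. The endosomal DNA sensor *Tlr9* and the lipopeptide receptor *Tlr2* also fell (log2 fold change -1.24, SE 0.15, adjusted p = 0.000271, and log2 fold change -0.76, SE 0.16, adjusted p = 0.00858), as did *Batf3*, a factor of cross-presenting dendritic cells (log2 fold change -1.34, SE 0.25, adjusted p = 0.00475), the sialophorin gene *Spn* (log2 fold change -0.81, SE 0.15, adjusted p = 0.00419) and *Coro1a*, an actin regulator and the only called gene among 19 pan-leukocyte genes (log2 fold change -1.09, SE 0.15, adjusted p = 0.000466). The calls of *Tlr2*, *Batf3* and *Spn* were lost in 6, 5 and 5 of the 8 fits with a control library left out.

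Immunoglobulin genes rose at week 10. *Ighm*, the heavy chain of IgM, was at 323, 346, 383 and 368 CPM at week 7 and 670.3, 668, 958 and 1001 CPM at week 10. *Ighm* showed a log2 fold change of 1.22 (SE 0.16, adjusted p = 0.00039). *Igkc*, the kappa light chain constant gene, was at 57.2, 87.7, 25.1 and 102 CPM at week 7 and 1376, 349, 1114 and 950.2 CPM at week 10. *Igkc* gave a log2 fold change of 3.8 (SE 0.64, adjusted p = 0.00242). *Ighg1*, the heavy chain of IgG1 and chosen here after its values were seen, was at 18, 41.8, 12.9 and 52.9 CPM at week 7 and 1029, 109, 616 and 476 CPM at week 10. *Ighg1* had a log2 fold change of 4.15 (SE 0.68, adjusted p = 0.00197). *Jchain*, which joins secreted IgM and IgA, was at 7.39, 7.28, 2.53 and 9.56 CPM at week 7 and 59.5, 32.2, 55.1 and 58 CPM at week 10. *Jchain* showed a log2 fold change of 2.94 (SE 0.53, adjusted p = 0.00409). All 4 week 10 libraries exceeded all 4 week 7 libraries in each of these genes, and week 10 library 2 was the lowest of its group in all 4. Summed over all 381 variable, diversity and joining segments of the annotation, the level was 34.2, 54.2, 18.9 and 55.4 CPM at week 7 and 656, 219, 599 and 524 CPM at week 10. Only 132 segments passed the expression filter, of which 32 were called higher and none lower, and since a segment can pass through the week 10 libraries alone this count is no support for the direction. Of 17 B and plasma cell genes 3 rose, *Ighm*, *Igkc* and *Jchain*, 1 fell and 13 were not called. Of all genes 0.629% were called higher and 1.51% lower. With a control library left out 1 to 3 of the 17 rose, the fewest without week 7 library 1. The gene that fell was *Prdm1*, encoding the factor BLIMP-1 of plasma cells and effector T cells, at 7.75, 6.86, 10.3 and 11.9 CPM at week 7 and 4.14, 3.46, 4.32 and 4.6 CPM at week 10. *Prdm1* gave a log2 fold change of -1.16 (SE 0.18, adjusted p = 0.00138). Of 4 list members chosen after their values were seen, the plasma cell genes *Xbp1* and *Tnfrsf17* had log2 fold changes of -0.031 (adjusted p = 0.877) and 0.56 (adjusted p = 0.468), and the B cell genes *Ms4a1* and *Cd79a* of 2.14 (adjusted p = 0.107) and 1.82 (adjusted p = 0.119). Without week 10 libraries 1 and 3 the log2 fold changes of *Ighm*, *Ighg1*, *Igkc* and *Jchain* were 1.23, 3.22, 3.25 and 2.76, all called. The call of *Jchain* was lost in 4 of the 8 fits with a control library left out (adjusted p up to 0.0176), and those of *Igkc* and *Ighg1* in 1 each.

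Several of the largest rises were carried by part of the week 10 libraries. *Ngp*, a neutrophil granule protein, had the largest rise of the genes named and was at 0.522, 1.58, 0.169 and 1.92 CPM at week 7 and 31.2, 2.55, 74.6 and 20.2 CPM at week 10. *Ngp* had a log2 fold change of 4.94 (SE 0.88, adjusted p = 0.00363). *Ltf*, the granule protein lactoferrin, was at 1.06, 0.869, 0.621 and 1.17 CPM at week 7 and 14.6, 1.19, 34.4 and 9.85 CPM at week 10. *Ltf* showed a log2 fold change of 4.01 (SE 0.76, adjusted p = 0.00535). Of 12 neutrophil genes tested 4 rose and none fell, beside 0.629% of all genes called higher. All 12 had log2 fold changes above 0 (median 3.19), as had 10125 of all 20822 genes tested. Besides *Ngp* and *Ltf* the called genes were *Mmp9*, a gelatinase, and *Elane*, neutrophil elastase. The groups overlapped in *Elane* and not in *Mmp9* (log2 fold change 2.83, SE 0.57, adjusted p = 0.00831, and log2 fold change 2.32, SE 0.43, adjusted p = 0.00466). *Cd177*, a neutrophil surface protein, and *Abca13*, a lipid transporter, rose too (log2 fold change 4.07, SE 0.72, adjusted p = 0.0036, and log2 fold change 3.95, SE 0.71, adjusted p = 0.00381). In 4 of the 12 all week 10 libraries were above all week 7 libraries, as in 4.08% of all genes. In *Ngp* and *Ltf* week 10 library 2 was the lowest of its group and close to the week 7 values, and library 3 the highest. The summed level of 13 neutrophil genes was 42.9, 103, 65.7 and 78.4 CPM at week 7 and 306, 46.2, 534 and 199 CPM at week 10, so library 2 lay inside the week 7 range.

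*Kit*, the stem cell factor receptor of mast cells, was at 11.2, 7.31, 7.78 and 7.92 CPM at week 7 and 22.2, 12.6, 26.1 and 13.2 CPM at week 10. *Kit* gave a log2 fold change of 1.11 (SE 0.23, adjusted p = 0.00839). *Fcer1a*, the alpha chain of the IgE receptor, was at 1.42, 1.24, 1.04 and 0.686 CPM at week 7 and 14.6, 0.906, 16.8 and 3.83 CPM at week 10, where libraries 1 and 3 were far above and library 2 lay within the week 7 range. *Fcer1a* gave a log2 fold change of 3.03 (SE 0.63, adjusted p = 0.00915). These were the 2 called of 10 mast cell genes, beside 0.629% of all genes called higher. All 10 had log2 fold changes above 0 (median 2.18), as had 10125 of all 20822 genes tested. The eosinophil granule gene *Prg2* was at 0.158, 0.124, 0.0141 and 0.224 CPM at week 7 and 3.53, 0.571, 6.12 and 0.573 CPM at week 10 (log2 fold change 4.36, SE 0.87, adjusted p = 0.00756). It was the only called gene of 7 eosinophil genes tested, out of 10 listed. *Prg2* was scarce at week 7 and can have passed the expression filter through the week 10 libraries alone. None of the mast cell genes was called in the fit of the 8 control libraries or without week 10 libraries 1 and 3, where 0 and 2 of the neutrophil genes were called. Leaving out single control libraries gave 0 to 8 called mast cell genes and 0 to 10 called neutrophil genes, the most without week 10 library 2 in both. The calls of *Ngp*, *Ltf*, *Kit*, *Fcer1a* and *Prg2* were lost in 3, 5, 6, 6 and 6 of the 8 fits with a control library left out, with adjusted p up to 0.0188, 0.0229, 0.0314, 0.0358 and 0.0285. Those of *Mmp9*, *Elane*, *Cd177* and *Abca13* were lost in 6, 5, 4 and 4 of these fits (adjusted p up to 0.023, 0.0349, 0.0176 and 0.0188).

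Among macrophage genes, *Marco*, a scavenger receptor, was at 4.18, 10.8, 2.98 and 5.16 CPM at week 7 and 261, 12.2, 302 and 32.8 CPM at week 10. *Marco* had a log2 fold change of 4.72 (SE 0.88, adjusted p = 0.00463). *Cd5l*, a secreted protein of tissue macrophages, was at 3.8, 7.39, 4.6 and 6.0 CPM at week 7 and 239.5, 7.47, 261 and 18.8 CPM at week 10. *Cd5l* showed a log2 fold change of 4.59 (SE 0.88, adjusted p = 0.00566). *Slc40a1*, the iron exporter ferroportin, was at 7.87, 6.68, 6.58 and 5.96 CPM at week 7 and 84.9, 7.96, 94.8 and 15.3 CPM at week 10. *Slc40a1* gave a log2 fold change of 2.9 (SE 0.55, adjusted p = 0.00535). *Ednrb*, an endothelin receptor, was at 47.8, 58.7, 44.7 and 53.8 CPM at week 7 and 287, 102, 311 and 81.9 CPM at week 10. *Ednrb* had a log2 fold change of 1.93 (SE 0.32, adjusted p = 0.00229). Week 10 libraries 1 and 3 were above all other libraries in these 4 genes. In *Marco*, *Cd5l* and *Slc40a1* library 4 was between and library 2 was just above the highest week 7 library. The calls of *Marco*, *Cd5l*, *Slc40a1* and *Ednrb* were lost in 5, 6, 6 and 1 of the 8 fits with a control library left out. Without libraries 1 and 3 the log2 fold changes were 1.96, 1.27, 0.78 and 0.84 with adjusted p = 0.0235, 0.0635, 0.0107 and 0.000335, so only *Ednrb* kept its call. None of the 20 lipid-associated macrophage genes was called. *Spp1*, encoding osteopontin, was at 60.5, 169, 81.4 and 68.6 CPM at week 7 and 1013, 39.4, 896 and 78.2 CPM at week 10. *Spp1* showed a log2 fold change of 2.42 (SE 0.77, adjusted p = 0.0785). *Gpnmb*, a lysosomal glycoprotein, was at 1179, 1459, 1101 and 770.0 CPM at week 7 and 3878, 616, 4257 and 814 CPM at week 10. *Gpnmb* gave a log2 fold change of 1.08 (SE 0.49, adjusted p = 0.231). *Mmp12*, the macrophage elastase, was at 935, 935, 709.6 and 514 CPM at week 7 and 4315, 314, 4942 and 583 CPM at week 10. *Mmp12* had a log2 fold change of 1.72 (SE 0.60, adjusted p = 0.114). In all 3, libraries 1 and 3 were above and libraries 2 and 4 within or below the week 7 range. *Mmp13*, a collagenase, had a log2 fold change of 0.94 (adjusted p = 0.368) over the 4 week 10 libraries and of -1.39 (adjusted p = 0.00106) without libraries 1 and 3, the opposite direction. *Inmt*, an amine methyltransferase, was at 3.1, 4.86, 2.53 and 4.02 CPM at week 7 and 6.84, 29.4, 6.82 and 69.2 CPM at week 10, highest in libraries 2 and 4 (log2 fold change 2.96, SE 0.62, adjusted p = 0.00957), a call lost in 6 of the 8 fits.

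**Figure D4:**
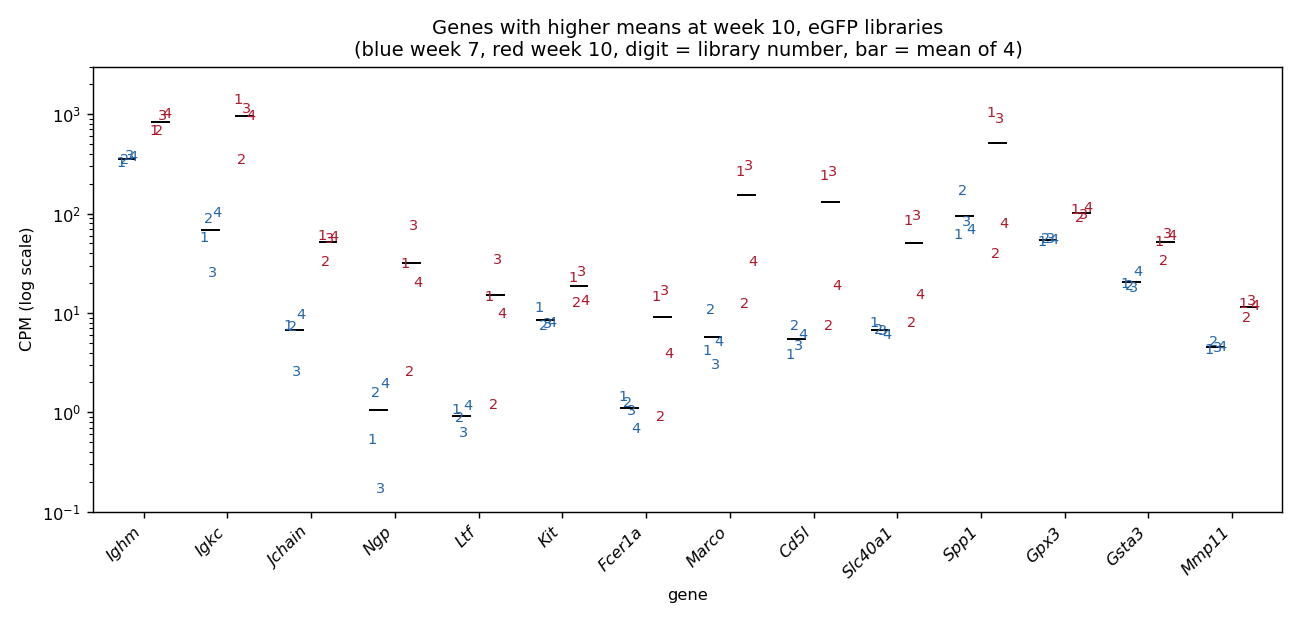
CPM on a log axis of 14 genes in the 8 eGFP libraries, each value drawn as its library number in blue (week 7) or red (week 10), with bars for the mean of 4. Red 1 and 3 lie far above red 2 and 4 in *Marco*, *Cd5l*, *Slc40a1* and *Spp1*, red 2 is the lowest of its group in *Ngp*, *Ltf* and *Fcer1a*, and the 4 red values lie above the 4 blue values in *Gpx3*, *Gsta3* and *Mmp11*.

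Of 23 antioxidant and glutathione genes 3 rose and none fell, beside 0.629% of all genes called higher. *Gpx3*, the secreted glutathione peroxidase, was at 52.1, 55.7, 55.4 and 54 CPM at week 7 and 108, 90.5, 95.6 and 114 CPM at week 10. *Gpx3* showed a log2 fold change of 0.91 (SE 0.11, adjusted p = 0.000289). *Gsta3*, a glutathione transferase, was at 19.8, 18.9, 17.9 and 26.1 CPM at week 7 and 52, 33.5, 61.7 and 59.7 CPM at week 10 (log2 fold change 1.32, SE 0.17, adjusted p = 0.000338). *Gsta4*, a glutathione transferase that detoxifies lipid aldehydes, was at 13.4, 11.9, 14 and 16.9 CPM at week 7 and 24, 36.9, 29.5 and 37.1 CPM at week 10. *Gsta4* gave a log2 fold change of 1.18 (SE 0.16, adjusted p = 0.000547). The calls of these 3 genes held in every fit with a library left out. The list as a whole had a median log2 fold change of 0.87 and a mean log2 CPM of 6.23, 6.29, 6.11 and 6.23 at week 7 and 7.17, 6.24, 7.31 and 6.54 at week 10. Week 10 libraries 1 and 3 were highest and library 2 lay within the week 7 range. With a control library left out 3 to 12 of the 23 rose, the most without week 10 library 2. The other members included *Slc7a11*, the cystine transporter and chosen after its values were seen, with a log2 fold change of 2.55 (adjusted p = 0.0416), and *Gclc*, a glutathione synthesis enzyme, with 1.76 (adjusted p = 0.0148). *Por*, which donates electrons to cytochrome P450 enzymes, was at 105, 128, 118 and 112 CPM at week 7 and 154, 177, 162 and 185 CPM at week 10. *Por* had a log2 fold change of 0.55 (SE 0.076, adjusted p = 0.000589). *Akr1c14*, a steroid reductase, went from 2.46 ± 0.181 to 5.81 ± 0.725 CPM (log2 fold change 1.24, SE 0.17, adjusted p = 0.000466). *Cyb5a*, cytochrome b5, went from 258 ± 5.84 to 345 ± 22.5 CPM (log2 fold change 0.42, SE 0.071, adjusted p = 0.00248) and *Rnase4*, a secreted ribonuclease, from 125 ± 14.2 to 185 ± 16.4 CPM (log2 fold change 0.57, SE 0.11, adjusted p = 0.0058). No groups overlapped in these 7 called genes, where 4.08% of all genes had every week 10 library above every week 7 library. Non-overlap was a condition for naming *Por*, *Akr1c14*, *Cyb5a* and *Rnase4*, so it is no support for them. The calls of *Rnase4* and *Cyb5a* were lost in 5 and 1 of the 8 fits.

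Of 18 fibroblast and adipocyte progenitor genes 2 rose, *Dcn* and *Cd55*, and none fell, beside 0.629% of all genes called higher. *Csmd1*, a large membrane protein with complement control domains, had the smallest p of the rises and was scarce, at 0.222, 0.14, 0.169 and 0.192 CPM at week 7 and 1.27, 1.21, 1.01 and 1.37 CPM at week 10. *Csmd1* showed a log2 fold change of 2.74 (SE 0.24, adjusted p = 3.00e-05). *Mmp11*, a matrix metalloproteinase, was at 4.24, 5.06, 4.45 and 4.53 CPM at week 7 and 12.3, 8.93, 13.2 and 11.7 CPM at week 10. *Mmp11* gave a log2 fold change of 1.33 (SE 0.16, adjusted p = 0.000239). *Dcn*, the collagen-binding proteoglycan decorin, was at 800.1, 895, 766 and 846 CPM at week 7 and 1311, 1399, 1195 and 1662 CPM at week 10. *Dcn* had a log2 fold change of 0.75 (SE 0.11, adjusted p = 0.000845). *Gas6*, a ligand of TAM receptors, was at 75.2, 107, 93.8 and 105 CPM at week 7 and 215, 154, 178 and 215 CPM at week 10. *Gas6* showed a log2 fold change of 1.0 (SE 0.14, adjusted p = 0.000499). The prostaglandin F receptor gene *Ptgfr* rose from 1.65 ± 0.17 to 3.44 ± 0.756 CPM (log2 fold change 1.05, SE 0.17, adjusted p = 0.00178), the complement component *C7* from 8.13 ± 1.51 to 17.1 ± 6.14 CPM (log2 fold change 1.07, SE 0.22, adjusted p = 0.00799), and the complement regulator *Cd55* from 45 ± 4.76 to 62.9 ± 7.98 CPM (log2 fold change 0.48, SE 0.098, adjusted p = 0.00831). *Olfm2*, a secreted olfactomedin, went from 2.65 ± 0.262 to 5.68 ± 0.859 CPM (log2 fold change 1.1, SE 0.16, adjusted p = 0.000762). The calls of *C7* and *Cd55* were lost in 7 and 6 of the 8 fits with a control library left out.

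*Tnc*, the matrix protein tenascin-C of tissue repair, fell and was at 56, 107, 89.6 and 62.4 CPM at week 7 and 18, 36.2, 20.1 and 16.2 CPM at week 10. *Tnc* gave a log2 fold change of -1.8 (SE 0.26, adjusted p = 0.000865). Of 31 collagen and matrix genes *Dcn* and *Tnc* were the only ones called, and with a control library left out 1 to 4 fell, the most without week 10 library 2. *Glp1r*, the GLP-1 receptor, fell and was at 8.2, 5.84, 3.78 and 5.32 CPM at week 7 and 1.26, 0.201, 1.09 and 1.2 CPM at week 10. *Glp1r* had a log2 fold change of -2.63 (SE 0.41, adjusted p = 0.00149). *Ereg*, the growth factor epiregulin, was at 3.83, 6.32, 3.04 and 1.74 CPM at week 7 and 0.705, 0.671, 0.833 and 0.439 CPM at week 10. *Ereg* showed a log2 fold change of -2.5 (SE 0.45, adjusted p = 0.00363), a call lost in 3 of the 8 fits with a control library left out. *Orm2*, an acute phase glycoprotein, was at 12.4, 21.6, 16.2 and 14.2 CPM at week 7 and 3.8, 3.79, 3.38 and 6.27 CPM at week 10. *Orm2* gave a log2 fold change of -1.89 (SE 0.24, adjusted p = 0.000311). *Npc2*, a lysosomal cholesterol carrier, was at 715, 774, 734 and 673 CPM at week 7 and 478, 482, 462 and 539 CPM at week 10. *Npc2* had a log2 fold change of -0.56 (SE 0.081, adjusted p = 0.000732). *Clic4*, a chloride channel protein, was at 604, 708, 615 and 579.6 CPM at week 7 and 432, 462, 419.7 and 416 CPM at week 10 (log2 fold change -0.53, SE 0.075, adjusted p = 0.000638). Week 10 library 2 was the lowest for *Glp1r* by far.

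Of 30 cell division genes 2 fell, none rose and 28 were not called. Log2 fold changes were below 0 in 29 of the 30, beside 51.4% of all genes, with a median of -0.56. The 2 were *Bub1b* and *Mcm2*. *Bub1b*, a mitotic checkpoint kinase, was at 20.2, 24.1, 20.3 and 20.5 CPM at week 7 and 14.8, 12.3, 15.9 and 10.7 CPM at week 10. *Bub1b* showed a log2 fold change of -0.67 (SE 0.12, adjusted p = 0.00404). *Mcm2*, a subunit of the replicative helicase, was at 13.3, 12.2, 13 and 14.1 CPM at week 7 and 10.5, 7.8, 9.34 and 7.93 CPM at week 10. *Mcm2* gave a log2 fold change of -0.57 (SE 0.11, adjusted p = 0.00831). The proliferation marker *Mki67* had a log2 fold change of -0.69 (adjusted p = 0.0356) and the topoisomerase *Top2a*, chosen after its values were seen, of -0.65 (adjusted p = 0.0461). Of 55 replication-dependent histone genes, a family counted after values were seen, 22 fell and none rose, beside 1.51% of all genes called lower. The summed level of all 70 in the annotation was 735, 919, 681 and 734 CPM at week 7 and 526, 492, 631 and 507 CPM at week 10, without overlap. Of 24 cholesterol synthesis genes 3 fell, among them *Lss* and *Hsd17b7*, none rose and 21 were not called, beside 1.51% of all genes called lower. All 24 had log2 fold changes below 0 (median -0.44). *Lss*, lanosterol synthase, was at 40, 42.1, 40.8 and 38.7 CPM at week 7 and 30.9, 25.2, 27.2 and 29.6 CPM at week 10. *Lss* had a log2 fold change of -0.52 (SE 0.087, adjusted p = 0.00256). *Hsd17b7*, a sterol ketoreductase, gave a log2 fold change of -0.47 (SE 0.096, adjusted p = 0.00915). *Sqle*, squalene epoxidase and chosen after its values were seen, had a log2 fold change of -0.32 (adjusted p = 0.468). The calls of *Bub1b*, *Mcm2* and *Hsd17b7* were lost in 4, 7 and 8 of the 8 fits with a control library left out. With a control library left out 0 to 4 cell division genes and 1 to 3 cholesterol genes fell, and in the fit of the 8 control libraries 0 and 0. Without both week 10 libraries 1 and 3, 19 cell division genes and 14 cholesterol genes were lower. The CHR letters TTTGAA of mitotic promoters were in 13 of 27 windows of the cell division genes (48.1%, against 17.9% of all), and the sterol element letters TCACCCCAC in 1 of 19 windows of the cholesterol genes (5.26%, against 0.551%).

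Adipocyte genes gave no call, and week 10 libraries varied widely. None of 26 mature adipocyte, 20 adipokine, 22 insulin signalling, 22 lipogenesis, 20 lipolysis, 21 fatty acid oxidation or 30 nuclear respiratory chain genes passed the test, and the medians of these 7 lists lay between -0.17 and 0.28. *Adipoq*, encoding adiponectin, was at 748, 603, 713 and 807 CPM at week 7 and 409, 1379, 546 and 1144 CPM at week 10. *Adipoq* gave a log2 fold change of 0.28 (SE 0.27, adjusted p = 0.647). *Lep*, encoding leptin, was at 2320, 2670, 3108 and 2960 CPM at week 7 and 1348, 3068, 1239 and 3595 CPM at week 10. *Lep* had a log2 fold change of -0.26 (SE 0.26, adjusted p = 0.654). For both, week 10 libraries 1 and 3 were below and libraries 2 and 4 above most or all week 7 libraries. *Plin1*, the lipid droplet coat protein, and *Slc2a4*, the insulin-responsive glucose transporter, both chosen after their values were seen, had log2 fold changes of -0.028 (adjusted p = 0.958) and 0.15 (adjusted p = 0.754), and the insulin receptor substrate *Irs1* was at 16.9, 15.2, 16.3 and 15.8 CPM at week 7 and 12.8, 23.6, 12.9 and 16.1 CPM at week 10. *Irs1* showed a log2 fold change of 0.026 (SE 0.15, adjusted p = 0.953). *Lrg1* itself, encoding the secreted glycoprotein given to the other mice, was at 86.2, 108, 110.2 and 107 CPM at week 7 and 99.6, 115, 106 and 105 CPM at week 10 in control mice (log2 fold change 0.047, SE 0.19, adjusted p = 0.931). *Tnf*, the inflammatory cytokine, was lower in all week 10 libraries at 4.76, 4.78, 3.88 and 5.03 CPM at week 7 and 3.37, 1.65, 3.1 and 2.09 CPM at week 10 and was not called (log2 fold change -0.86, SE 0.23, adjusted p = 0.0396). The cytochrome c gene *Cycs* and the leptin receptor gene *Lepr* had log2 fold changes of -0.14 (adjusted p = 0.465) and -0.046 (adjusted p = 0.965). Of 21 clock genes only *Nr1d2*, a clock repressor, was called, at 48.8, 54.9, 56.2 and 60.6 CPM at week 7 and 75, 83.6, 73.1 and 70 CPM at week 10 (log2 fold change 0.45, SE 0.083, adjusted p = 0.00444), a call lost in 4 of the 8 fits, and the clock activator *Arntl*, chosen after its values were seen, had a log2 fold change of -0.48 (adjusted p = 0.134). The hour of collection is not given in the sources used here and was not tested.

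The 8 LRG1 libraries, which share no library with the control course, give the same interval under the other virus. In LRG1 mice 2 genes were called between week 7 and week 10 (0.00961% of genes tested), *Prps1*, a nucleotide synthesis enzyme, higher (log2 fold change 1.18, SE 0.13, adjusted p = 0.00204) and *Orm2* lower (log2 fold change -1.87, SE 0.23, adjusted p = 0.00555), and 1746 genes had an unadjusted p under 0.05, against 4131 in the control mice. The difference of the 2 courses was called in 68 genes (0.327%), 64 with a more negative change in the control mice (0.307%) and 4 with a more positive one (0.0192%). All 8 called MHC class II genes and 16 of 34 interferon-gamma-induced genes were among the 64. *H2-Ab1* was at 173, 195, 147 and 184 CPM in LRG1 mice at week 7 and 278, 252, 290.3 and 184 CPM at week 10, below every control library of week 7, and the difference of its changes was -2.03, SE 0.24, adjusted p = 0.000467. *Iigp1* was at 18.2, 50.6, 15.8 and 21.6 CPM at week 7 and 34.1, 37.4, 57.4 and 26.1 CPM at week 10 in LRG1 mice (difference -2.75, SE 0.48, adjusted p = 0.00897). For *Iigp1* every LRG1 library was below every control library of either week, and for *H2-Ab1* the highest LRG1 library overlapped the lowest week 10 control library. *Pdcd1* and *Tox* were under 1 CPM in all 8 LRG1 libraries, with differences of -3.7, SE 0.55, adjusted p = 0.00279 and -3.27, SE 0.42, adjusted p = 0.000743. *Csmd1* and *Mmp11* had positive differences of 2.35, SE 0.32, adjusted p = 0.00143 and of 1.54, SE 0.23, adjusted p = 0.00271. *Csmd1* was at 0.382, 0.338, 0.552 and 0.50 CPM in LRG1 mice at week 7 and 0.716, 0.569, 0.49 and 0.559 CPM at week 10, above the week 7 and below the week 10 control libraries. The rises of *Jchain* and *Igkc* were not called different between the viruses (difference 0.78, SE 0.72, adjusted p = 0.872, and 1.88, SE 0.82, adjusted p = 0.468).

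**Figure D5:**
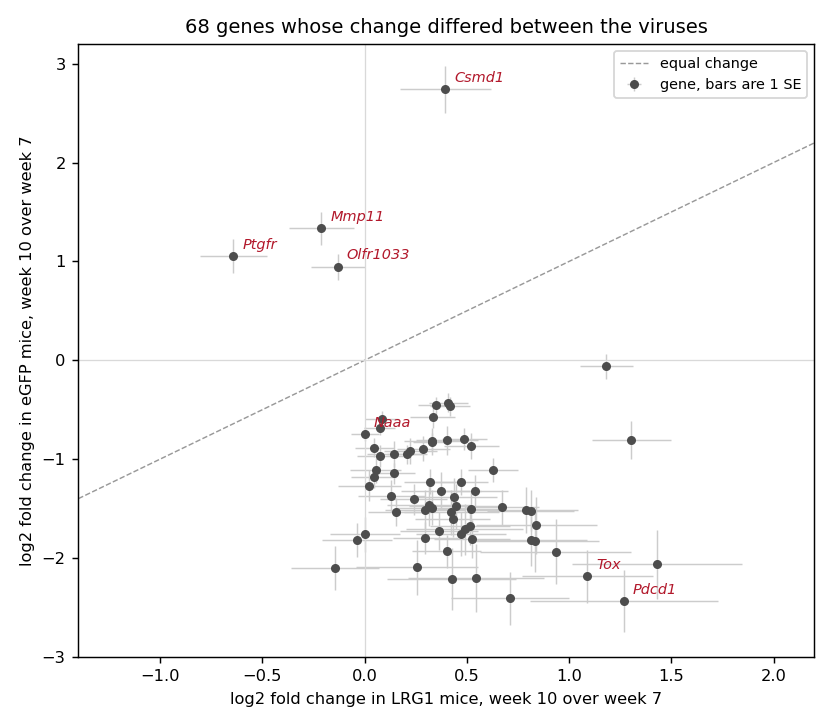
Log2 fold change from week 7 to week 10 in eGFP mice (vertical) against that in LRG1 mice (horizontal) for the 68 genes whose changes differed at an adjusted p below 0.01, with bars of 1 SE and a dashed line of equal change. The 4 genes above the line, *Csmd1*, *Mmp11*, *Ptgfr* and *Olfr1033*, rose in eGFP mice, and the 64 below it lie under 0 on the vertical axis.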

How the data were processed

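RNA from eWAT of 16 male C57BLKS/J-db/db mice was sequenced, 4 for each virus and age. The authors deposited raw read counts per gene, not normalized, for 55573 genes. The submitters' processing notes name cutadapt, STAR and featureCounts and the builds mm10 and GRCm38. Versions, strand and multimapping settings are not given in the sources used here. No column belonged to a sample outside the series (0 columns). Symbols matched 55394 genes, and 20822 passed edgeR's filterByExpr by group.

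All 16 libraries were fitted together with edgeR 4.0.16 in R 4.3.3 (TMM scaling, quasi-likelihood F test, 4 group means), testing week 10 minus week 7 within eGFP, the same within LRG1, and the difference of these changes. Genes with an adjusted p (Benjamini-Hochberg) under 0.01 were called. The SE is the log2 fold change divided by the square root of F. The 4 groups share their estimate of the spread, so SE and adjusted p do not measure the spread of the eGFP libraries alone. List means average log2 CPM (prior count 2). Total counts of 45376227 to 64521251 in the eGFP libraries make 1 CPM 38.4 to 70.8 counts. The scripts were tested on simulated data. The replicates are separate mice, and equal numbers across weeks do not mark the same mouse.

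Named genes were, with immunoglobulin and T cell receptor segments and clone names left out, called genes whose weeks did not overlap with the largest changes (12 per direction), smallest p (10) and largest CPM differences (8), up to 6 members with the smallest p of each of 70 lists, the genes the study names, and 8 per sign of the difference between viruses. Exceptions are marked in the text, and some genes that the rule names are not reported here. The members and lists were chosen with earlier results of these data known. Alternatives were other scalings and filters, DESeq2 1.42.0, limma-voom (limma 3.58.1), the 8 eGFP libraries alone, a replicate block, robust fitting, a threshold of 0.05, removal of mitochondrial genes, and each library left out in turn.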

Additional observations from a re-analysis of the deposited data

Results flagged for a closer look

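In 15 of 272 sets of 4 libraries, 1 library stood apart from the other 3 by a gap whose share of the group's range was above Dixon's 95% critical value for 4 values. Chance gives about 1 such set in 20. At week 7 these were *Bub1b* (0.938), *Ccl12* (0.856), *Cyb5a* (0.871), *Elane* (0.953), *Kit* (0.843), *Lrg1* (0.854), *Psmb10* (0.888), *Spn* (0.917) and *Tlr9* (0.855). At week 10 they were *Aif1* (0.894), *Glp1r* (0.845), *Il12rb1* (0.905), *Jchain* (0.841), *Klrk1* (0.879) and *Orm2* (0.855).

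The change between weeks differed between the viruses, by the test of the difference in edgeR, for 28 of the genes named. The log2 change in eGFP mice minus that in LRG1 mice was below 0 for *Aif1* (-1.65), *Cd74* (-2.04), *Ciita* (-2.1), *Gbp2* (-1.81), *H2-Aa* (-2.19), *H2-Ab1* (-2.03), *H2-DMa* (-1.69), *H2-DMb1* (-2.33), *H2-Eb1* (-2.33), *H2-Q2* (-1.16), *H2-Q6* (-1.74), *Igtp* (-2.64), *Iigp1* (-2.75), *Klrk1* (-1.96), *Naaa* (-0.746), *Nlrc5* (-1.16), *Pdcd1* (-3.7), *Pld4* (-1.22), *Psmb10* (-1.29), *Psmb8* (-1.7), *Rtp4* (-1.76), *Slamf9* (-1.78), *Spn* (-1.21), *Tap1* (-1.82) and *Tox* (-3.27). It was above 0 for *Csmd1* (2.35), *Mmp11* (1.54) and *Ptgfr* (1.7).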

How the results depend on the processing

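Of the 446 genes called between weeks in eGFP mice, none changed sign in any alternative. The count was 1054 (450 higher, 604 lower) with DESeq2, 109 (24 and 85) with the 8 eGFP libraries alone, and 1220 (479 and 741) at an adjusted p below 0.05. Scaling by library size gave 476 lower genes. Without week 10 libraries 1 and 3, chosen after seeing the data, it was 2209 (1063 and 1146), and *Mmp13* reversed to a log2 fold change of -1.39. Leaving out 1 library in turn gave 180 to 479 called genes, 29 to 233 higher and 151 to 276 lower, with the fewest without week 7 library 1. The 68 genes whose change differed between viruses became 122 by library size, 104 without the filter, 263 with DESeq2, 196 at 0.05, 466 without week 10 libraries 1 and 3, and 40 to 92 with 1 library left out. The cause was not tested. In the fit of the 8 eGFP libraries alone, 21 of the 131 higher and 82 of the 315 lower genes kept their call. Of the 97 called genes named in the text, 48 lost their call in that fit. With the replicate number as a block, 258 genes were called (56 higher, 202 lower) and 35 differed between viruses. The deviations of same-numbered libraries of the 2 eGFP weeks correlated at 0.0307, -0.2, -0.101 and 0.142. Libraries with unlike numbers were not compared, so these values cannot show whether a number marks a shared cage or batch. With 4 mice a group, a change of a gene that differs widely among the week 10 libraries is measured with a large error, and a gene not called is not shown to be unchanged.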
